A study of Mus musculus with 17 samples.

Results

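The genes of 10 transcription factors that are active in the earliest T-cell progenitors of the thymus were followed in the thymus of 17 mice. These genes were Spi1, Bcl11a, Hhex, Mef2c, Lmo2, Lyl1, Meis1, Cebpa, Gata2 and Nfe2, out of 18194 genes represented on the arrays by a probe set with a single gene symbol. They were chosen by name and not by their signal, and each was read from the brightest of its probe sets, judged by the mean of the 17 arrays. All 10 passed the filter on low signals, which kept 13756 genes, although Meis1 lay above the filter's level, the 40th percentile of the array, on only 5 arrays.

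The groups were 8 Tcf1-/- mice with a thymic lymphoma, 4 Tcf1-/- mice without tumor and 5 Tcf1+/- control mice. All were C57Bl/6, with the genotype ΔVII/ΔVII in the Tcf1-/- mice and wt/ΔVII in the controls, so the controls also carried a mutated allele, and Tcf1 was absent from all cells of the Tcf1-/- mice rather than from 1 lineage. The labels give no ages, and the study describes the Tcf1-/- mice without tumor as similar in age to those with tumors, which were recognized by the size of the thymus. The labels give homogenized thymus as the source of the RNA and the study's methods give homogenized thymocytes, with no purification described for the arrays, and each mouse had an array of its own. The question these groups address here is whether genes of the progenitor stage are higher in a thymus without Tcf1, and whether lymphomas that arise there carry the same signal.

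T-cell progenitors that enter the thymus still use regulators of stem cells and of the other blood lineages, and these are switched off in steps while the cells commit to the T lineage. Tcf1 is switched on by Notch signals early on the way and helps to start the T-cell program. Most of the 10 genes are not particular to progenitors: Spi1 and Cebpa are also regulators of myeloid cells, Spi1, Bcl11a, Hhex and Mef2c are also expressed in B cells, and Gata2, Meis1 and Nfe2 belong to mast cells, erythroid cells or megakaryocytes as well. Lmo2 and Lyl1 are known as oncogenes of human T-cell acute leukemia, where Mef2c, Hhex and Lyl1 also mark leukemias that resemble early progenitors.

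The promoters of the members were searched for short sequence motifs because the groups differ in a T-cell factor and because Spi1, a member itself, encodes the ETS factor PU.1. Promoter windows from RefSeq (build GRCm38.p6), which hold 250 bases before and 50 bases after a start site, were at hand for 7 members in 10 windows (Bcl11a, Hhex, Mef2c, Lyl1, Meis1, Cebpa and Gata2), while Spi1, Lmo2 and Nfe2 had no entry. CTTTGA, the core of the site of Tcf and Lef factors, was found on either strand in 2 of the 10 windows and in 16.0% of all 32851 windows in the table. GAGGAA, a core of the site of PU.1, was found on either strand in 3 of the 10 windows and in 28.3% of all windows, and the motifs did not overlap in any member. The 4 windows with a match are shown because they are the only ones, with the matched bases in capitals and read 5' to 3'. The first is the window of Lyl1 (chr8:84701207-84701506, plus strand), with 1 match of each motif, that of CTTTGA being on the minus strand, and the others are those of 3 start sites of Mef2c, named A to C here (chr13:83503784-83504083, chr13:83523406-83523705 and chr13:83573357-83573656, plus strand).
Lyl1: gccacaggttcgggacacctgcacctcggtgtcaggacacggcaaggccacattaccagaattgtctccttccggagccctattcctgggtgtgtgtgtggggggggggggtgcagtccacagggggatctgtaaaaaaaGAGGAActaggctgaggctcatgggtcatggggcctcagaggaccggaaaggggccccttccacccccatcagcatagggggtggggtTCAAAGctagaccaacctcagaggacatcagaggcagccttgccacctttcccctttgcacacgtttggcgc
Mef2c, start site A: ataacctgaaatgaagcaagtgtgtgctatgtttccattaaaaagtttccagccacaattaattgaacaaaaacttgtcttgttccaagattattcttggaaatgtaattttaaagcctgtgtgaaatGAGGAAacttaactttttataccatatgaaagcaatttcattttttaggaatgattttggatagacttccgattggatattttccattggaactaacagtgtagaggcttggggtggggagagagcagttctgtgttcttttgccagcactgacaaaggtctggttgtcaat
Mef2c, start site B: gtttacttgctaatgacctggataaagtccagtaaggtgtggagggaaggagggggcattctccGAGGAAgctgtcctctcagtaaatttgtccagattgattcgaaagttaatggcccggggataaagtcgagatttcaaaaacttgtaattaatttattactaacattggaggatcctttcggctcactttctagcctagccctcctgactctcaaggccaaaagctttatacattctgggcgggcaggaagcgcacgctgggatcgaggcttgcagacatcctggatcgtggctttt
Mef2c, start site C: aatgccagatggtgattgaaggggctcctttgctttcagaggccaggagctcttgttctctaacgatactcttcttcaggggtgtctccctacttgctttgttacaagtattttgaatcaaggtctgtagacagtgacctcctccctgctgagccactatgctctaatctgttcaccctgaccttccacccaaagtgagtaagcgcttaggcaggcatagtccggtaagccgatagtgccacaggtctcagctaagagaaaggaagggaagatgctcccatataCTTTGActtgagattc
Start sites A and B of Mef2c had 1 match of GAGGAA each and start site C had 1 match of CTTTGA. Hhex, Cebpa and Bcl11a, members that differed between groups, had no match in their windows. A match describes these letters only, and binding was not measured.

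The arrays differed in technical measures. Tcf1+/- replicates 1 and 2 and lymphoma replicates 1 and 2 stood apart, with an interquartile range of the log2 signals of 2.93 to 3.06 against 3.49 to 3.75 on the other 13 arrays, and with a 3' probe set of Gapdh that exceeded the 5' probe set by 1.12 to 2.63 against -0.13 to 0.96. No array of Tcf1-/- mice without tumor was among these 4. Signal of Y-linked genes was present in 2 of 8 lymphoma mice, 4 of 4 Tcf1-/- mice without tumor and 4 of 5 controls. Thymocyte markers such as the CD3 components of the T-cell receptor complex were detected in every group. Of 9 such markers 7 were lower in Tcf1-/- thymi without tumor than in controls, and the median log2 difference was -1.96. The coreceptor gene Cd4 was at 8.42 to 9.28 in these thymi against 11.0 to 11.6 in controls, while Cd3g was at 12.5 to 12.9 against 12.2 to 13.1.

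In Tcf1-/- thymi without tumor, 7 of the 10 members were higher than in control thymi and none was lower. They were Mef2c, Hhex, Lmo2, Lyl1, Nfe2, Spi1 and Cebpa, in the order of the difference, from 20.6-fold for Mef2c to 3.0-fold for Cebpa. Across all genes tested, 10.1% were higher, 4.7% were lower and 14.8% changed in either direction in this comparison (limma, adjusted p under 0.05). The median difference of the members was 1.81 on the log2 scale, against -0.01 over all genes tested. In each of the 7, every thymus without tumor lay above every control, which held for 11.2% of all genes tested in this direction. In RNA from a mixture of cells, a change in the share of a cell type and a change in RNA per cell cannot be told apart.

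**Figure D1:**
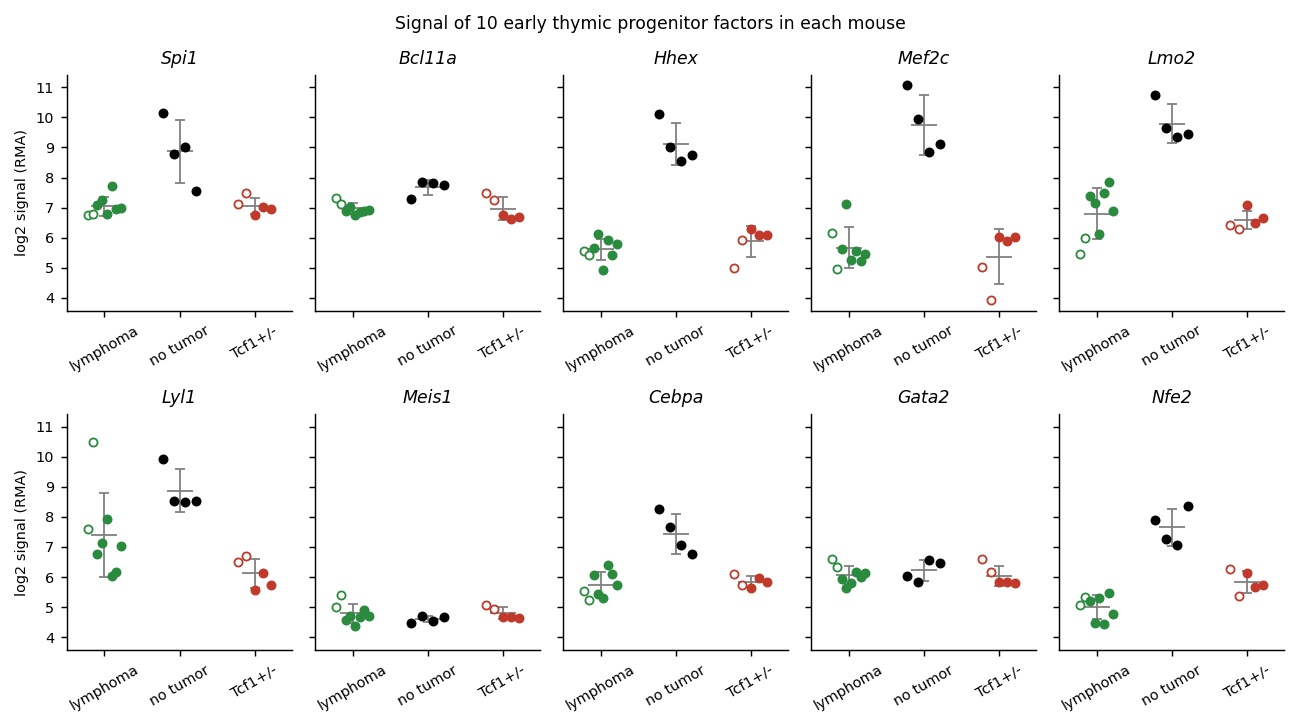
Log2 signal (RMA) of the 10 members on the y axis for each mouse, in green for Tcf1-/- lymphoma (n = 8), black for Tcf1-/- without tumor (n = 4) and red for Tcf1+/- (n = 5), with grey bars for the mean and SD and open circles for the 4 arrays that stood apart. For 7 members all 4 black points lie above all red points, and Lyl1 is the member with the widest spread among lymphomas, 6.04 to 10.5.

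Spi1 encodes PU.1, which must be silenced before T-lineage commitment and which drives myeloid and B-cell genes elsewhere. Its probe set (gene at chr2:91082374-91115759) had a log2 signal of 10.1, 8.77, 9.02 and 7.55 in the 4 Tcf1-/- thymi without tumor, against 7.12, 7.48, 6.74, 7.01 and 6.94 in the 5 controls. The first thymus was highest and the fourth lay close to the highest control. The means were 8.87 ± 1.06 (SD, n = 4) and 7.06 ± 0.27 (SD, n = 5), a difference of 1.81 with a standard error of 0.42 (limma, adjusted p = 0.0151). The spread of Spi1 between the 4 thymi exceeded that of any other member in this group, each read from its brightest probe set. Its partner in B cells and macrophages, the interferon regulatory factor Irf8, was higher by 2.30 (standard error 0.31), and Irf4 of the same family by 1.89 (standard error 0.32).

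Bcl11a, a zinc finger repressor needed by lymphoid progenitors and B cells, was measured by 7 probe sets (gene at chr11:24076564-24173558). The brightest of them, 1447335_x_at, had 7.29, 7.84, 7.81 and 7.74 in Tcf1-/- thymi without tumor, against 7.47, 7.26, 6.76, 6.64 and 6.69 in controls. The groups overlapped, because the first thymus lay below the control with the highest signal, and the difference of 0.71 (standard error 0.22) missed the threshold (limma, adjusted p = 0.0539). The other probe sets told more of this gene. In a fit over all probe sets with a single symbol, 5 of the 7 were higher and none lower, with differences of the 7 from 0.06 to 3.68, where 5.11% of all probe sets were higher. Probe set 1456632_at had 10.3, 8.36, 7.70 and 7.24 in Tcf1-/- thymi without tumor, against 4.20, 4.61, 4.94, 4.77 and 5.04 in controls, with no overlap. Probe set 1453814_at stayed between 3.58 and 4.19 on all 17 arrays. Without the 4 arrays that stood apart, the brightest probe set passed as well, with a difference of 0.98 (adjusted p = 0.00602).

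**Figure D2:**
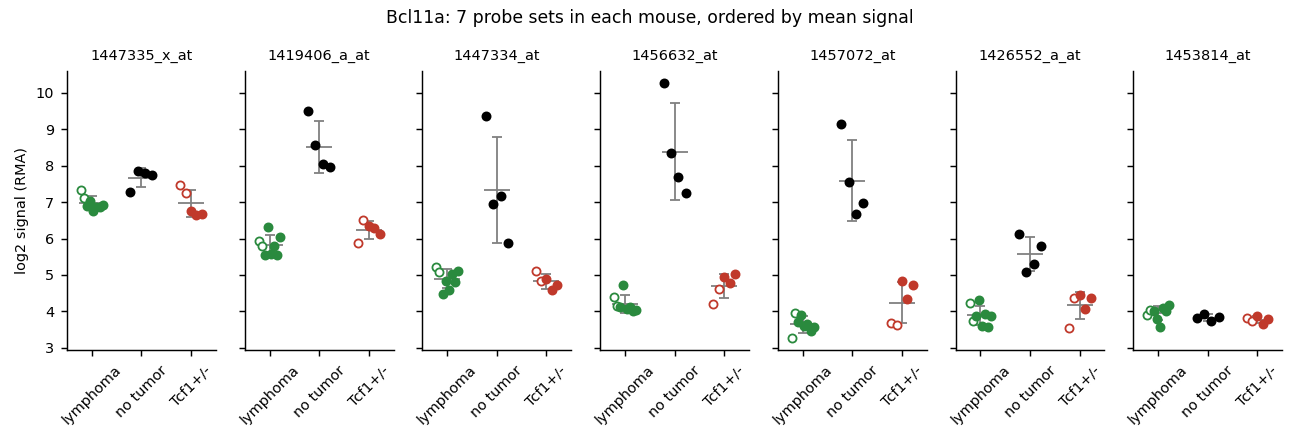
Log2 signal (RMA) of the 7 probe sets of Bcl11a, ordered from left to right by their mean over 17 arrays, for each mouse, in green for Tcf1-/- lymphoma (n = 8), black for Tcf1-/- without tumor (n = 4) and red for Tcf1+/- (n = 5), with grey bars for the mean and SD and open circles for the 4 arrays that stood apart. The brightest probe set has overlapping groups, while 1456632_at separates Tcf1-/- thymi without tumor, 7.24 to 10.3, from controls, 4.20 to 5.04.

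Hhex, a homeobox factor of blood progenitors and B cells (gene at chr19:37434841-37440731), had a log2 signal of 10.1, 9.01, 8.55 and 8.74 in Tcf1-/- thymi without tumor, against 5.00, 5.94, 6.29, 6.08 and 6.10 in controls. Even the lowest thymus of the first group lay more than 2 log2 units above the highest control. The difference was 3.22 with a standard error of 0.35 (limma, adjusted p = 0.000311).

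Mef2c, a MADS-box factor of lymphoid progenitors, B cells and myeloid cells (gene at chr13:83504017-83667079), differed most. Its log2 signal was 11.1, 9.94, 8.84 and 9.13 in Tcf1-/- thymi without tumor, against 5.02, 3.93, 6.01, 5.89 and 6.03 in controls, where the arrays that stood apart gave the 2 lowest values. The difference was 4.37 with a standard error of 0.54 (limma, adjusted p = 0.000588). All 5 probe sets of Mef2c were higher, by 2.78 to 4.37. The mean of the 5 gave a smaller difference of 3.37, and the call held.

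Lmo2 and Lyl1 encode proteins that act together: Lmo2 is a LIM-only bridging protein and Lyl1 a basic helix-loop-helix factor that can bind it. Lmo2 (gene at chr2:103957903-103981878) had 10.7, 9.66, 9.35 and 9.44 in Tcf1-/- thymi without tumor, against 6.42, 6.29, 7.07, 6.49 and 6.65 in controls, and the groups lay far apart. Its difference was 3.21 (standard error 0.29, adjusted p = 0.000150 from limma). Lyl1 (gene at chr8:84701423-84704716) had 9.94, 8.53, 8.49 and 8.54 in Tcf1-/- thymi without tumor, against 6.49, 6.70, 5.57, 6.12 and 5.75 in controls. The last 3 of the thymi without tumor were almost equal and the first was higher. The difference was 2.75 (standard error 0.34, adjusted p = 0.000642 from limma). Of the cofactors that join them, neither the bridging protein Ldb1 (difference 0.13, adjusted p = 0.778) nor the E protein genes Tcf3, Tcf12 and Tcf4 (differences -0.14, -0.15 and 0.75, adjusted p = 0.787, 0.853 and 0.363) passed the test. These 4 were chosen for their part in the complex after their values were seen.

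Cebpa, the CCAAT enhancer binding protein that starts the granulocyte and macrophage program (gene at chr7:35119293-35121928), had 8.26, 7.65, 7.05 and 6.78 in Tcf1-/- thymi without tumor, against 6.09, 5.74, 5.62, 5.96 and 5.83 in controls. The lowest thymus without tumor was above the highest control. The difference was 1.59 (standard error 0.28, adjusted p = 0.00367 from limma). Its relative Cebpb was higher too, by 1.77 (standard error 0.43).

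Nfe2, a basic leucine zipper factor of megakaryocytes and erythroid cells (gene at chr15:103248212-103258403), had 7.91, 7.25, 7.07 and 8.37 in Tcf1-/- thymi without tumor, against 6.26, 5.37, 6.15, 5.68 and 5.73 in controls. It was the only one of the 7 that was highest in the fourth thymus, and the groups did not overlap. The difference was 1.81 (standard error 0.29, adjusted p = 0.00232 from limma). The mean of 10 erythroid and megakaryocyte markers, taken above the control mean, followed the same order in these thymi, with 1.03, 0.61, 0.60 and 1.48, and the platelet chemokine genes Ppbp and Pf4 were the markers on this list that rose, by 3.14 and 3.10. The part of such cells in the Nfe2 signal was not tested.

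Meis1 and Gata2, a homeobox cofactor of Hox proteins and a zinc finger factor of stem cells and mast cells, did not pass the test. Meis1 (gene at chr11:18880428-19019651) had 4.48, 4.70, 4.54 and 4.68 in Tcf1-/- thymi without tumor, against 5.08, 4.95, 4.68, 4.66 and 4.63 in controls, a difference of -0.20 with a 95% confidence interval of -0.53 to 0.13 (limma). Gata2 (gene at chr6:88193891-88207032) had 6.03, 5.85, 6.56 and 6.46 in Tcf1-/- thymi without tumor, against 6.58, 6.16, 5.84, 5.83 and 5.79 in controls, a difference of 0.18 with an interval of -0.31 to 0.67. In both genes the highest controls were those of the arrays that stood apart. For Gata2 all 4 thymi without tumor lay above the other controls, at 5.79 to 5.84, although the lowest of these thymi, at 5.85, did so barely. Meis1 was the dimmest member, and neither its 3 nor the 2 probe sets of Gata2 gave a call. With 4 against 5 mice the exact two-sided permutation test cannot go below 0.00794, a value that all 7 called members reached.

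Of 12 other genes of the progenitor stage that were tested, 5 were higher in Tcf1-/- thymi without tumor and none lower, with a median difference of 0.16. The receptor Cd93 was higher by 2.87 (standard error 0.29), the stem cell factor receptor Kit by 2.60 (standard error 0.38), the sialomucin Cd34 by 1.75 (standard error 0.26) and the cytokine receptor Flt3 by 1.43 (standard error 0.27). Of 15 partners of the members, 5 were higher and 2 lower, and the largest difference was that of Pbx3, a homeobox cofactor that can pair with Meis1, at 3.14 (standard error 0.58). Among 9 factors of T-lineage commitment, none was higher and 3 were lower: the chromatin organizer Satb1 with -2.01, the inhibitor of E proteins Id3 with -1.56 and the zinc finger factor Bcl11b with -0.97.

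Markers of B cells and myeloid cells moved with the members. Of 12 B-cell markers 10 were higher in Tcf1-/- thymi without tumor than in controls, led by the surface antigen Ms4a1 with 4.44, Cd22 with 4.34, the receptor component Cd79a with 4.32 and the complement receptor Cr2 with 4.02. All 14 macrophage and monocyte markers were higher, led by the lysozyme Lyz2 with 3.06, the receptor Csf1r with 2.83, the integrin Itgam with 2.71 and the Fc receptor Fcgr3 with 2.7. Dendritic cell markers rose in 6 of 8, NK-cell markers in 3 of 4, granulocyte markers in 4 of 9, fibroblast markers in 4 of 6, endothelial markers in 1 of 7 and mast cell markers in 1 of 5, the protease Cpa3, while 1 of 10 thymic epithelial markers was lower.

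Per mouse, the mean of the 12 B-cell markers was 3.86, 2.84, 2.65 and 2.17 log2 units above the control mean in Tcf1-/- thymi without tumor, against -0.22 to 0.29 in controls. The mean of the 14 macrophage markers was 3.46, 2.63, 2.13 and 1.52, against -0.69 to 0.46 in controls. Both marker means ranked the 4 thymi alike, with replicate 1 highest and replicate 4 lowest, as did the mean of the dendritic cell markers. Other myeloid lists did not: the granulocyte marker mean was 0.35, 3.10, 3.48 and 2.34, and the mast cell marker mean 0.24, 1.24, 1.41 and 1.52. Replicate 1 was lowest in these 2 means. Cebpa had the order of the B-cell and macrophage marker means, and Spi1, Hhex, Mef2c, Lmo2 and Lyl1 were also highest in replicate 1. Of these, Spi1 was lowest in replicate 4, while Hhex, Mef2c, Lmo2 and Lyl1 were lowest in replicate 3. Nfe2 was highest in replicate 4. For Bcl11a the order depended on the probe set. The brightest was lowest in replicate 1. Probe set 1456632_at, which differed most from controls, had the order of the B-cell and macrophage marker means. The 4 mice are too few for a correlation, and the part of B cells and myeloid cells in the members' signal was not tested.

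**Figure D3:**
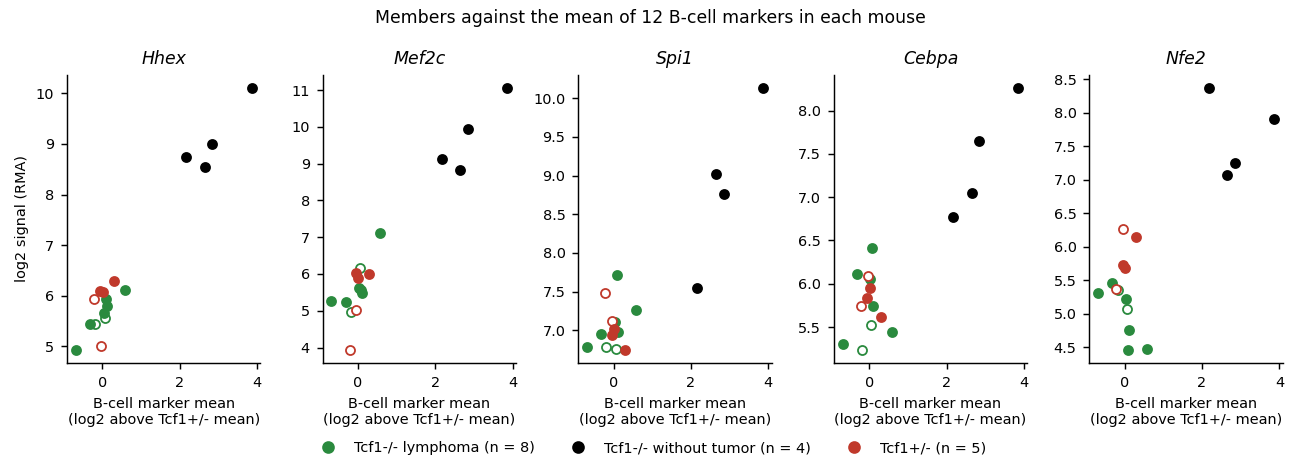
Log2 signal (RMA) of Hhex, Mef2c, Spi1, Cebpa and Nfe2 on the y axis against the mean of 12 B-cell markers on the x axis, in log2 units above the Tcf1+/- mean, for each mouse, in green for Tcf1-/- lymphoma (n = 8), black for Tcf1-/- without tumor (n = 4) and red for Tcf1+/- (n = 5), with open circles for the 4 arrays that stood apart. Tcf1-/- thymi without tumor lie at marker means of 2.17 to 3.86, to the right of the lymphomas at -0.69 to 0.58.

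In the lymphomas most of the progenitor factors had a low signal. Against Tcf1-/- thymi without tumor, 7 of the 10 members were lower and none higher: Mef2c, Hhex, Lmo2, Nfe2, Spi1, Cebpa and Bcl11a, the last with 1.62-fold less and Mef2c with 16.8-fold less signal. Of all genes tested 8.35% were lower, 6.34% were higher and 14.7% changed in either direction in this comparison. The median difference of the members was -1.77, against 0.10 over all genes. For Hhex, Mef2c, Lmo2, Cebpa and Nfe2 every lymphoma lay below every thymus without tumor, which held for 6.26% of all genes in this direction. The thymi without tumor are those of the comparison with controls as well, so the 2 sets of differences share these mice.

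Mef2c lay between 4.95 and 7.11 with a median of 5.51 in the 8 lymphomas, and the highest value, in replicate 4, was still below the lowest thymus without tumor, at 8.84. The difference was -4.07 (standard error 0.44, adjusted p = 6.66e-05 from limma). Hhex lay between 4.93 and 6.12 with a median of 5.61 in lymphomas, against 8.55 as the lowest thymus without tumor, a difference of -3.49 (standard error 0.28, adjusted p = 9.98e-06). On the brightest probe set of each gene these 2 had the largest differences of the members, and all 5 probe sets of Mef2c were lower, as were 5.17% of all probe sets.

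Nfe2 ranged from 4.46 to 5.46 with a median of 5.15 in lymphomas, a difference of -2.64 from the thymi without tumor (standard error 0.27, adjusted p = 5.29e-05 from limma). Lmo2 ranged more widely, from 5.47 to 7.85 with a median of 7.03, and its lowest 2 values, 5.47 and 6.00, were those of lymphoma replicates 1 and 2, whose arrays stood apart. Its difference was -2.99 (standard error 0.43, adjusted p = 0.000562), and -2.64 without the 4 arrays (adjusted p = 0.00121).

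Spi1 lay between 6.76 and 7.72 with a median of 6.97 in lymphomas, and replicate 6, the highest, was above the fourth thymus without tumor. The difference was -1.82 (standard error 0.36, adjusted p = 0.00447 from limma). Cebpa lay between 5.23 and 6.41 with a median of 5.64, a difference of -1.71 (standard error 0.29, adjusted p = 0.00178). The brightest probe set of Bcl11a lay between 6.75 and 7.33 with a median of 6.91, a difference of -0.70 (standard error 0.15, adjusted p = 0.00866), and 6 of its 7 probe sets were lower, down to -4.19. With Y-linked signal as a covariate Spi1, Cebpa and Bcl11a no longer passed (adjusted p = 0.170, 0.0801 and 0.121), and 4 members were called. That fit rests on lymphoma replicates 4 and 6, the 2 with such signal, since all 4 thymi without tumor have it.

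Lyl1 was the exception among the genes that were high in thymi without tumor. In the lymphomas it was at 7.59, 10.5, 6.77, 7.12, 7.93, 6.04, 6.16 and 7.03 in replicates 1 to 8. Replicate 2 exceeded even the highest thymus without tumor, at 9.94, while the other 7 lymphomas lay below the lowest, at 8.49. The difference of -1.49 (standard error 0.67) did not pass (limma, adjusted p = 0.159). Without lymphoma replicate 2 it was -1.93 and passed (adjusted p = 0.00788).

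Meis1 and Gata2 differed little between lymphomas and thymi without tumor. Meis1 lay between 4.39 and 5.40 with a median of 4.70 in lymphomas, a difference of 0.19 with an interval of -0.19 to 0.57. Gata2 lay between 5.62 and 6.59 with a median of 6.08, a difference of -0.15 with an interval of -0.58 to 0.28. Of the 3 probe sets of Meis1 1 was lower in lymphomas, 1450992_a_at, with -0.55 (adjusted p = 0.0229 from limma over all probe sets), while the brightest had the opposite sign.

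Of the 12 other progenitor-stage genes, 4 were lower in lymphomas than in thymi without tumor and none higher: Kit with a difference of -2.55, Cd34 with -1.88, Flt3 with -1.52 and the leucine zipper factor Hlf with -1.32. Cd93 was not among them. Its log2 signal ranged from 6.22 to 10.2 in lymphomas, against 8.74 to 9.76 in thymi without tumor and 5.83 to 6.88 in controls. Among the partners Irf8 and Cebpd were lower, with -2.30 and -1.39, and no commitment factor passed. B-cell markers were lower in 11 of 12, macrophage markers in 13 of 14, granulocyte markers in 8 of 9, dendritic cell markers in 7 of 8, mast cell markers in 4 of 5, NK-cell markers in 4 of 4, thymic epithelial markers in 4 of 10, endothelial markers in 2 of 7, and erythroid and megakaryocyte markers in 2 of 10. Of the last 2 lists 1 marker each was higher, as was 1 of 9 thymocyte markers, and no fibroblast marker passed. The mean of the B-cell markers in lymphomas was -0.69 to 0.58 log2 units from the control mean and that of the macrophage markers -1.71 to 0.93, so both lay below all 4 thymi without tumor, and their part in the members' differences was not tested.

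**Figure D4:**
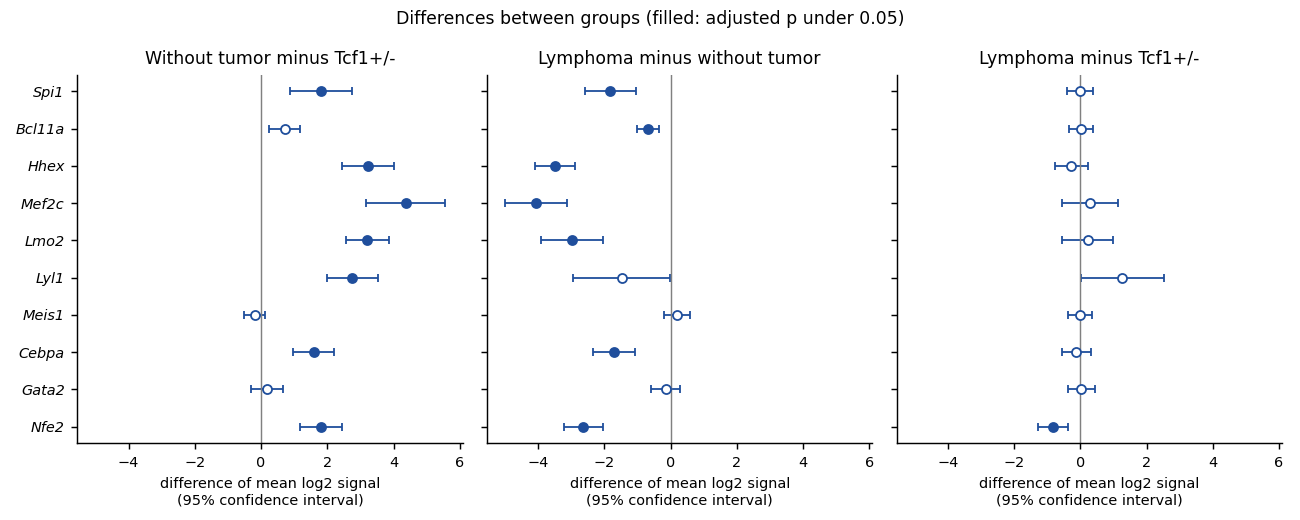
Difference of the mean log2 signal on the x axis with its 95% confidence interval from limma for the 10 members, in Tcf1-/- thymi without tumor minus Tcf1+/- thymi (left), Tcf1-/- lymphomas minus Tcf1-/- thymi without tumor (middle) and Tcf1-/- lymphomas minus Tcf1+/- thymi (right), filled where the adjusted p was under 0.05. On the left 7 members are filled, all to the right of 0, and in the middle 7 are filled, all to the left. On the right Nfe2 alone is filled.

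Against control thymi, 1 of the 10 members was called in the lymphomas, Nfe2, which was lower. Of all genes tested 4.21% were lower, 8.49% higher and 12.7% changed in either direction in this comparison. The median difference of the members was 0.00, against 0.06 over all genes. No member separated the groups without overlap, as 6.67% of all genes did. The controls here are the same mice as in the comparison with thymi without tumor.

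Nfe2 averaged 5.01 ± 0.40 (SD) in the 8 lymphomas and 5.84 ± 0.36 (SD) in the 5 controls, and 7 of 8 lymphomas lay below the lowest control, at 5.37. The difference was -0.82 (standard error 0.22, adjusted p = 0.0228 from limma). It was not called with the mouse number as a block (-0.75, adjusted p = 0.0524), without Tcf1+/- replicate 1 (-0.72, adjusted p = 0.0664) or without Tcf1+/- replicate 3 (-0.75, adjusted p = 0.0681). Within the 4 arrays that stood apart the difference was -0.60 and within the other 13 it was -0.91.

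Lyl1 averaged 7.39 ± 1.40 (SD) in the 8 lymphomas and 6.12 ± 0.48 (SD) in the 5 controls, and 6 of 8 lymphomas lay above the highest control, at 6.70. The difference of 1.27 (standard error 0.59, 95% confidence interval 0.01 to 2.52) did not pass the threshold (limma, adjusted p = 0.193). It passed in 2 other fits, with the mouse number as a block over the 5 shared numbers (1.85, adjusted p = 0.0264, against 0.104 for the same mice without the block) and with the array set as a block (1.5, adjusted p = 0.0273), and was 0.82 without lymphoma replicate 2 (adjusted p = 0.129). Lymphoma replicate 2 and control replicates 1 and 2, the highest of their groups, all had arrays that stood apart. Within these 4 arrays the difference was 2.44, and within the others 1.03.

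The other 8 members had intervals that reached to both sides of 0 in lymphomas against controls. The interval was -0.41 to 0.37 for Spi1, -0.77 to 0.23 for Hhex, -0.56 to 1.15 for Mef2c and -0.56 to 1.0 for Lmo2, so differences of 1 on the log2 scale lie outside it for Spi1 and are not shown to be absent for Mef2c. For Lmo2, 4 lymphomas lay above the highest control and 3 below the lowest, and for Mef2c, replicate 4 at 7.11 and replicate 1 at 6.17 lay above the highest control, at 6.03. None of the 12 other progenitor-stage genes was called. Of the commitment factors Satb1, Bcl11b and Ets1 were lower in lymphomas, with -1.44, -0.67 and -0.53, and the Tcf family member Lef1 was higher by 1.02 (standard error 0.27). Of the partners the repressor Gfi1 was lower, with -0.87. B-cell markers were 1 higher and 1 lower of 12, and none of the 14 macrophage markers was called. Other lists did move: 3 of 4 NK-cell markers, 4 of 8 dendritic cell markers, 5 of 9 thymocyte markers and 2 of 10 thymic epithelial markers were lower in lymphomas, and 1 of 10 erythroid and megakaryocyte markers and 1 of 7 endothelial markers were higher. The mean of the NK-cell markers was -2.23 to -0.89 log2 units from the control mean in lymphomas, against -0.45 to 0.40 in controls, and that of the dendritic cell markers -1.05 to -0.47, against -0.14 to 0.10, with no overlap in either. The thymocyte marker mean was -2.30 to -0.37 in lymphomas, against -0.40 to 0.24 in controls, and the fibroblast marker mean -0.37 to 2.40, against -0.12 to 0.10, although none of the 6 fibroblast markers was called. The part of these cells in the signal of Nfe2 and Lyl1 was not tested.

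Among the 8 lymphomas the members were related to 2 marker lists only, those of B cells and of macrophages. Hhex followed the mean of the B-cell markers (Pearson r = 0.95, exact permutation adjusted p = 0.0174 over 20 relations, Spearman rho = 0.95, adjusted p = 0.0228). Without the 2 mice farthest from the median of the marker mean, replicates 4 and 5, r was 0.81 with 6 mice (exact permutation p = 0.0625 before and 0.435 after adjustment), and without replicates 1 and 2 it was 0.97 (exact permutation p = 0.00278 before and 0.0556 after adjustment). Mef2c and Nfe2 had r = 0.78 and -0.76 with the same markers (exact permutation adjusted p = 0.0885 each), and by rank Nfe2 passed the adjustment with rho = -0.86 (adjusted p = 0.0429) while Mef2c did not with rho = 0.69 (adjusted p = 0.198). Replicate 5, the lymphoma lowest in Hhex and in the B-cell marker mean, was also lowest in other marker means. These were the dendritic cell (-1.05), NK-cell (-2.23), mast cell (-0.64) and thymic epithelial (-1.14) means. Whether the relation of Hhex is particular to B-cell markers was not tested.

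Against the mean of the macrophage markers, Lmo2 had r = 0.88 (exact permutation adjusted p = 0.0342, rho = 0.86, adjusted p = 0.0429) and Lyl1 r = -0.80 (exact permutation adjusted p = 0.0422, rho = -0.90, adjusted p = 0.0429). The 2 mice farthest from the median were lymphoma replicates 1 and 2, whose arrays stood apart and whose marker means were -1.63 and -1.71. Without them r was 0.67 for Lmo2 and -0.73 for Lyl1 with 6 mice (exact permutation p = 0.143 and 0.110 before and 0.504 after adjustment), and neither relation passed with the smaller number of mice. Cebpa had r = 0.78 with all 8 mice (exact permutation adjusted p = 0.0885), a rho of 0.86 (adjusted p = 0.0429) and r = 0.88 without those 2 (exact permutation adjusted p = 0.435), and Spi1 had r = 0.70 and 0.63. In all, 1 of 10 relations to B-cell markers and 2 of 10 to macrophage markers passed the adjustment by Pearson's r with 8 mice, and 3 and 5 had an unadjusted p under 0.05.

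**Figure D5:**
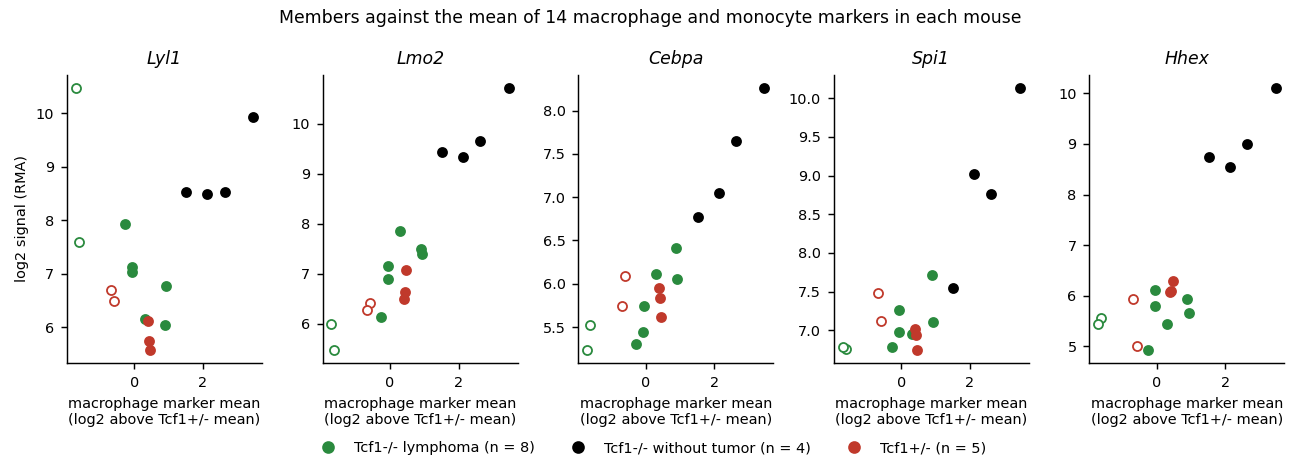
Log2 signal (RMA) of Lyl1, Lmo2, Cebpa, Spi1 and Hhex on the y axis against the mean of 14 macrophage and monocyte markers on the x axis, in log2 units above the Tcf1+/- mean, for each mouse, in green for Tcf1-/- lymphoma (n = 8), black for Tcf1-/- without tumor (n = 4) and red for Tcf1+/- (n = 5), with open circles for the 4 arrays that stood apart. The 2 open green circles lie at marker means of -1.63 and -1.71, where Lyl1 is 7.59 and 10.5 and Lmo2 is 5.47 and 6.00.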

How the data were processed

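RNA from the thymus of 17 mice was measured on Affymetrix mouse genome arrays, and each sample's title and strain gave its group. The authors summarized the arrays by RMA (no version given), so a deposited value is the log2 signal of a probe set. RMA usually includes a step that makes arrays alike in their distribution, but the interquartile range of the deposited values ran from 2.93 to 3.75 and the median from 5.23 to 5.47, and whether the 17 arrays were normalized together is not stated in the sources used here. The arrays' annotation gave 34958 probe sets a single symbol, 932 several and 9160 none. Other genes of a list without such a probe set, Tcf7 among them, were not analysed here.

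The brightest probe set on average stood for a gene. Genes above the 40th percentile of the array on at least 4 arrays were fitted with limma 3.58.1 in R 4.3.3, 1 fit per pair of groups, with Benjamini-Hochberg adjustment over all genes tested. A gene was called at an adjusted p under 0.05. Probe sets were fitted in the same way over all those with a single symbol. Differences of single members were also tested by exact two-sided permutation, and relations within the lymphomas by exact permutation of pairings (Python 3.11.15). A marker mean is the mean over its list of the log2 signal minus the control mean, over genes that passed the filter. Alternatives changed the mice or arrays in the fit, blocks and covariates, the filter, the probe set of a gene, the scaling between arrays, the variance model or the test. The fits were tested on simulated data. The members and gene lists were chosen with earlier results of these data known. All 10 members are named, with at most 4 called genes of each other list, those with the largest differences. The number of arrays limits the precision of every value.

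The titles number the mice in each group. Deviations from the group mean in lymphoma and control arrays of the same number correlated with r = 0.25 to 0.62 in 5 pairs, so the fit with the number as a block is given beside the values it changed. In only 2 of the 5 pairs was the control of the same number the one closest to the lymphoma. All 4 arrays that stood apart bear the number 1 or 2. The labels do not say what the numbers share.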

Additional observations from a re-analysis of the deposited data

Results flagged for a closer look

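Of 30 combinations of a member and a group, 3 held a mouse that lay far from the others of its group by Dixon's criterion, which chance alone would meet in about 1 group in 20. Lyl1 gave 2 of them. In the lymphomas, replicate 2 had a log2 signal of 10.5, while the next highest lymphoma was at 7.93 and the lowest at 6.04. In the Tcf1-/- thymi without tumor, replicate 1 was at 9.94, while the other 3 lay between 8.49 and 8.54. Hhex in Tcf1+/- replicate 1 was at 5.00, while the other controls lay between 5.94 and 6.29. Lymphoma replicate 2 and Tcf1+/- replicate 1 are among the 4 arrays that stood apart, and the macrophage marker mean of that lymphoma, -1.71, was the lowest of all 17 mice.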

How the results depend on the processing

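Members called numbered 7 for Tcf1-/- thymi without tumor against controls and 7 for lymphomas against those thymi. The Mann-Whitney U test called 0 in the first comparison, where no gene at all passed, 8 members had an unadjusted p under 0.05 and limma called 7. With 4 against 5 mice, genes whose groups did not overlap had the smallest p this test can give, and these missed too. That 0 therefore follows from the group sizes and the adjustment over all genes, and says nothing of the members in particular. Y-linked signal as a covariate left 4 in the second comparison. In lymphomas against controls the count of 1 became 2 with the array set as a block, and 0 with Abl1 subtracted (limma, 1 member at an unadjusted p under 0.05) or over mice with shared numbers only (limma, 2 at an unadjusted p under 0.05), an alternative added after the data had been seen. Leaving out 1 mouse gave 7 to 8, 7 to 8 and 0 to 1 members, the 0 arising without Tcf1+/- replicate 1 or 3 (2 and 1 at an unadjusted p under 0.05).

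With the replicate block, over the mice whose numbers both groups share, the 3 counts were 7, 5 and 1. The numbers did not pair thymi without tumor with controls (r = -0.29 to 0.12) or with lymphomas (r = -0.19 to 0.09). Spi1 and Bcl11a then missed in lymphomas against thymi without tumor (adjusted p = 0.0780 and 0.250), and the member called against controls was Lyl1 in place of Nfe2.

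Differences that changed sign were all uncalled ones of lymphomas against controls. Spi1 was 0.00090 with arrays centred on their medians, 0.0065 with Abl1 subtracted, 0.24 without the 4 arrays and 0.080 with the covariate. Bcl11a was -0.22 with the mean of all probe sets, -0.40 with the second brightest, -0.034 with quantile normalization and -0.13 with the covariate. Meis1 was 0.014 with the block and with shared numbers only, 0.011 with centring, 0.0087 with quantile normalization, 0.017 with Abl1 subtracted and 0.062 with the array set as a block. Mef2c was -0.048 with the mean of all probe sets and -0.27 without the 4 arrays, Cebpa 0.042 without them, Gata2 -0.12 with the covariate, and Lmo2 -0.15 with the block and with shared numbers only. Leaving out 1 mouse gave -0.072 to 0.14 for Bcl11a, -0.042 to 0.17 for Gata2, -0.067 to 0.46 for Mef2c, -0.093 to 0.063 for Meis1 and -0.11 to 0.088 for Spi1. Among relations within lymphomas, those of Bcl11a, Mef2c, Meis1 and Gata2 to macrophage markers became 0.030, -0.18, 0.19 and 0.46 without replicates 1 and 2, which are also the 2 farthest mice, and those of Lmo2, Meis1 and Gata2 to B-cell markers became -0.20, -0.54 and 0.21 without the 2 farthest. The causes of these changes were not tested.

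The median of all genes in lymphomas against thymi without tumor was 0.10 as deposited and 0.20 with Abl1 subtracted. Bcl11a missed there with Abl1 subtracted (adjusted p = 0.223) and with quantile normalization (adjusted p = 0.0650). Meis1 was dim on most arrays, which limits what its differences can show.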
